A study of Mus musculus with 15 samples.

Results

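The CA3 pyramidal markers are 7 genes listed for the excitatory neurons of hippocampal field CA3: Homer3, Bok, Coch, Iyd, Cdh24, Socs2 and Prss23. The members were the array probes whose accession resolved to one of these symbols. Of the 7 genes, 6 had a matched probe and 8 probes were matched in all, out of 41174 probes on the array. The expression of Bok, a member of the BCL2 family that promotes cell death, was not analysed here, since no probe was matched to it. All 6 matched genes were among the 22864 genes tested, but Cdh24 passed the filter on dim probes through 2 GREmx1-cre and 2 GRMREmx1-cre arrays alone.

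Transcripts were measured on 15 single-colour arrays of total RNA from the whole hippocampus of male C57BL/6 mice aged about 2.5 months, so that CA3 was one field among several in every sample. The 4 dflox mice carried floxed alleles of Nr3c1, which encodes the glucocorticoid receptor (GR), and of Nr3c2, which encodes the mineralocorticoid receptor (MR), and had no Cre. The 4 GREmx1-cre mice came from a floxed GR allele and Emx1-Cre, the 4 MREmx1-cre mice from a floxed MR allele and Emx1-Cre, and the 3 GRMREmx1-cre mice from both floxed alleles and Emx1-Cre. Emx1-Cre acts in the lineage of forebrain excitatory neurons and in part of the glia, not in CA3 alone. As the crosses are described, GRMREmx1-cre differed from dflox by Cre alone, whereas each single knockout also lacked one of the floxed alleles of dflox. The 4 slides held 1 genotype each, so that the slide and the genotype of an array cannot be told apart. Nothing in the labels says whether the samples of a group were collected together, so the p-values measure the spread between these samples.

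CA3 pyramidal neurons receive the mossy fibres of dentate granule cells and send the Schaffer collaterals to CA1. They differ from CA1 and CA2 neurons in the genes they express, and markers of this kind are used to tell the fields apart. GR and MR are nuclear receptors for the same adrenal steroid, and hippocampal neurons are known for their high MR content. In RNA of a whole tissue, fewer cells of a type and less RNA per cell cannot be told apart.

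Levels are given on the log2 scale relative to the 75th percentile of each array's processed signal, so a value of 0 is the level of that percentile and a difference of 1 is a fold of 2. A gene was called changed when its limma p-value, adjusted by Benjamini-Hochberg over all genes tested, was under 0.05. Over the 15 arrays the 75th percentile ranged from 821 to 1027 intensity units, and 28083 to 30206 probes were well above background. The library labels were checked on the targeted genes. Nr3c1 was lower than in dflox by a log2 difference of -2.24 ± 0.0776 (SE) in GREmx1-cre and -1.64 in GRMREmx1-cre. In MREmx1-cre it was higher by 0.54 (limma, adjusted p = 0.00165). The Nr3c2 probe of highest mean gave 0.42 in GREmx1-cre (adjusted p = 0.0212), -0.11 in MREmx1-cre (adjusted p = 0.48) and -0.31 in GRMREmx1-cre (adjusted p = 0.0394). The first missed the threshold when dflox replicate 3 or GREmx1-cre replicate 3 or 4 was left out (adjusted p up to 0.0695), and the last in the fits that dropped replicate 1, 2 or 4 of dflox, 3 of GREmx1-cre, or 2 or 3 of GRMREmx1-cre (adjusted p up to 0.167). The other 2 Nr3c2 probes gave -0.77 and -0.38 in MREmx1-cre (adjusted p = 0.108 and 0.268 over all tested probes) and -0.32 and -0.29 in GRMREmx1-cre (adjusted p = 0.503 and 0.379). Whether the probes lie in the deleted exons is not known, so the Nr3c2 values check nothing about the deletion. On 2 arrays markers of neighbouring tissue stood apart: GREmx1-cre 1 had the highest thalamus and habenula markers, and MREmx1-cre 2 the lowest choroid plexus markers. Without these 2 arrays the same number of members was called in every comparison.

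The promoters of 2 members are printed, because Homer3 was the member that changed and Cdh24 is one of the members whose promoter held a receptor half-site. They run from 250 bases before to 50 bases after the transcription start in RefSeq's annotation of GRCm38.p6. The Homer3 window is chr8:70282749-70283048 on the plus strand and the Cdh24 window is chr14:54641315-54641614 on the minus strand, each written 5′ to 3′. Capitals mark a half-site, here TGTTCT, the reverse complement of AGAACA.
Homer3: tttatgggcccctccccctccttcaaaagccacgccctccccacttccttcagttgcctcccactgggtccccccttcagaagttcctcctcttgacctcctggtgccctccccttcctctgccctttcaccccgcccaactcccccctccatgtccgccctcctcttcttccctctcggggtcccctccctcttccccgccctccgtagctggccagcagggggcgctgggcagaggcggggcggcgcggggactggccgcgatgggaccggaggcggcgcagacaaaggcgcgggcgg
Cdh24: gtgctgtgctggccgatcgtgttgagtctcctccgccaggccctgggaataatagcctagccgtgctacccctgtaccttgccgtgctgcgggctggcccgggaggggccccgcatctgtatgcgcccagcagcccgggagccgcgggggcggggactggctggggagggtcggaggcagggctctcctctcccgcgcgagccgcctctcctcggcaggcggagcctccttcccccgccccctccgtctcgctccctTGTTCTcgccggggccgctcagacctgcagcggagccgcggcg
The full receptor element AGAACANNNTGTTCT, an inverted repeat that contains the half-site on both strands, was in 0 of the members' 12 promoter windows and in 0.00913% of 32851 windows of the same length. The looser palindrome GNACANNNTGTNC was also in 0 of the 12, against 0.475% of all windows. A half-site on either strand was in 2 of the 12 windows, those of Bok and Cdh24, against 19% of all windows. The windows covered 6 of the 7 genes, without Socs2, and 7 of the 12 belonged to Prss23, some of them overlapping, so that by gene the half-site was in 2 of 6. A match of letters is a description and not a binding site.

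Homer3 was the member that changed: it was lower than in dflox in MREmx1-cre and GRMREmx1-cre, at 53.3% and 49.2% of the dflox level, and higher in GREmx1-cre, at 152%. Homer3 is a postsynaptic scaffold protein that links metabotropic glutamate receptors to inositol trisphosphate receptors and to Shank proteins. Its log2 levels were -1.07, -1.02, -1.48 and -0.91 in the dflox mice and -0.67, -0.54, -0.46 and -0.40 in the GREmx1-cre mice. They were -2.13, -2.17, -1.98 and -1.85 in the MREmx1-cre mice and -2.14, -2.01 and -2.27 in the GRMREmx1-cre mice. Every GREmx1-cre array lay above every dflox array, every MREmx1-cre and GRMREmx1-cre array lay below every dflox array, and the last 2 groups overlapped each other.

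**Figure D1:**
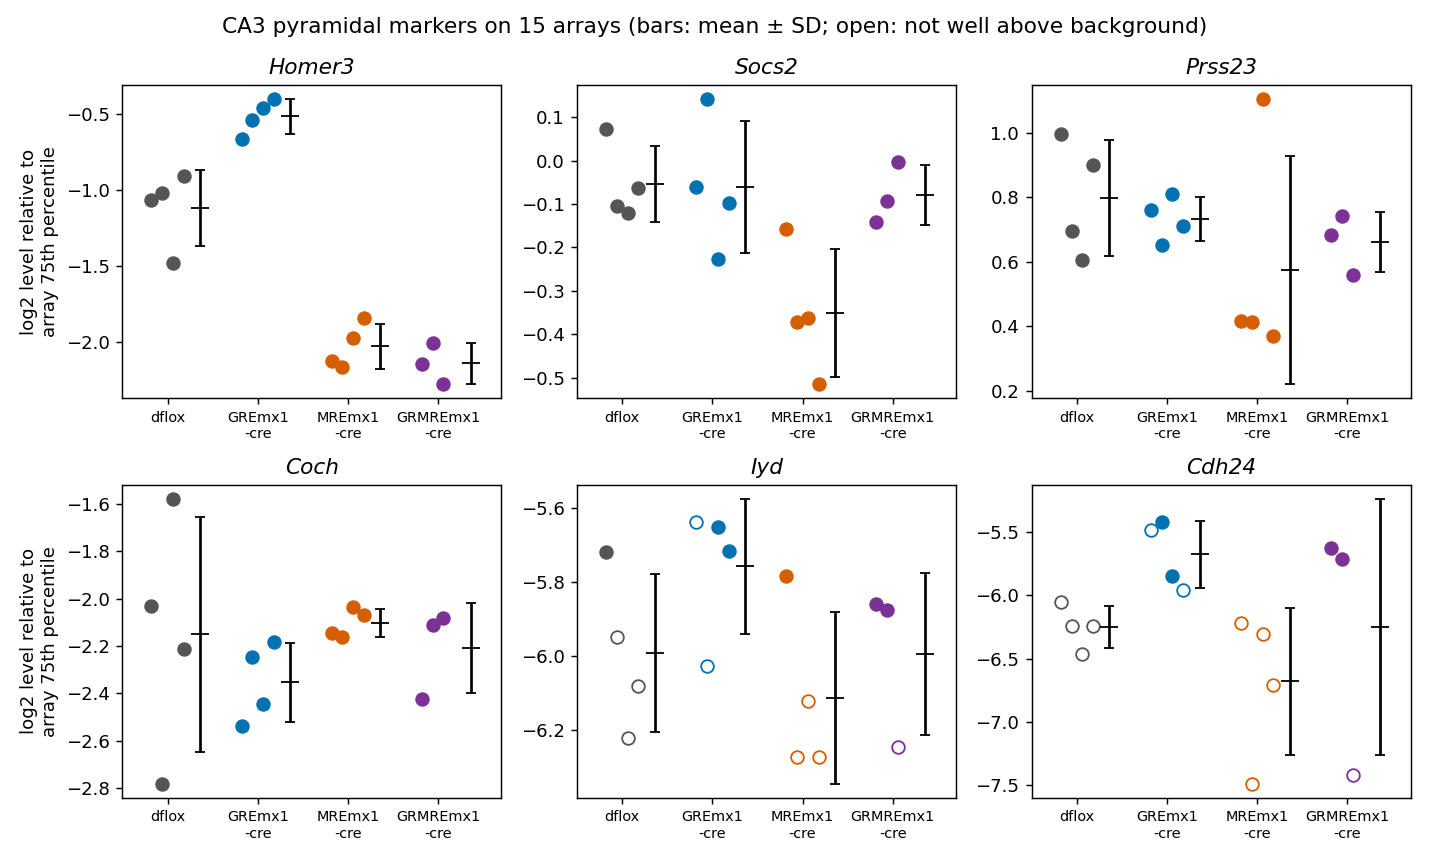
Log2 level of the 6 matched CA3 markers on each of the 15 arrays, relative to the array's 75th percentile. Points are arrays, bars are the mean ± SD of a group, and open points are arrays on which the probe was not well above background. Homer3 lies at -0.67 or above in GREmx1-cre and at -1.85 or below in MREmx1-cre and GRMREmx1-cre, whereas the groups of Coch and Iyd mostly overlap.

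In GREmx1-cre the Homer3 level was 152% of dflox, a log2 difference of 0.60 ± 0.117 (SE; 4 against 4 arrays; limma, adjusted p = 0.018). This was the 1 member of 6 called in that comparison, where 3.15% of all genes tested were called. In MREmx1-cre Homer3 fell to 53.3% of dflox, a log2 difference of -0.91 ± 0.117 (4 against 4 arrays; limma, adjusted p = 0.000867). It was again the 1 member of 6 called, against 6.81% of all genes. In GRMREmx1-cre Homer3 fell to 49.2% of dflox, a log2 difference of -1.02 ± 0.127 (3 against 4 arrays; limma, adjusted p = 0.000268), the 1 member of 6 called where 16.3% of all genes were called. The 3 comparisons share the dflox arrays.

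The order of the Homer3 means was GRMREmx1-cre at -2.14 ± 0.134 (SD, n = 3), MREmx1-cre at -2.03 ± 0.147 (n = 4), dflox at -1.12 ± 0.251 (n = 4) and GREmx1-cre at -0.52 ± 0.113 (n = 4). The lowest neighbours in this order did not differ beyond their spread: GRMREmx1-cre against MREmx1-cre gave -0.11 with a 95% interval from -0.39 to 0.16 (limma, adjusted p = 0.718). Against GREmx1-cre, Homer3 was lower by a log2 difference of -1.51 ± 0.117 in MREmx1-cre and -1.62 ± 0.127 in GRMREmx1-cre (limma, adjusted p = 1.68e-05 and 1.72e-05). It was the 1 member of 6 called in each of these comparisons, against 9.33% and 16.1% of all genes. The difference between MREmx1-cre and GREmx1-cre is also the test of whether the single knockouts departed from dflox by unlike amounts.

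The interaction asks whether the double knockout departs from the sum of the single knockouts. For Homer3 it was -0.72 ± 0.173 on the log2 scale (limma, adjusted p = 0.0656), so it did not pass the threshold. None of the 6 members passed by limma (0 of 6, against 1.29% of all genes), while 2 had an unadjusted p under 0.05, and Homer3 alone passed when limma was run with trend and robust variances (adjusted p = 0.0439).

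The rise of Homer3 in GREmx1-cre depended on single arrays. Without GREmx1-cre replicate 3 it was 0.58 (limma, adjusted p = 0.0551) and without GREmx1-cre replicate 4 it was 0.56 (adjusted p = 0.0567), and with only the GREmx1-cre and dflox arrays in the model the adjusted p was 0.0665. Both falls kept adjusted p-values of at most 0.00421 and 0.00197 when any 1 array was left out. Under a second background correction (normexp), none of the 3 Homer3 differences from dflox passed, with 0.53, -0.76 and -0.35 on the log2 scale. The same correction moved the median of all genes in GRMREmx1-cre against dflox from 0.03 to 0.42.

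**Figure D2:**
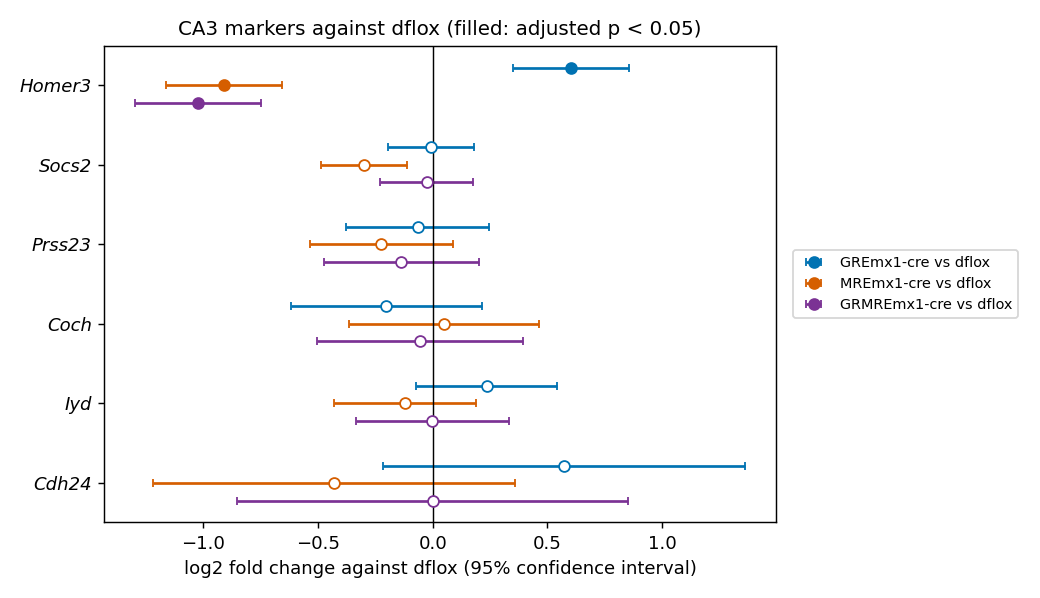
Log2 fold change of each tested CA3 marker against dflox in the 3 knockouts, with 95% confidence intervals from limma. Filled points passed an adjusted p of 0.05. The filled points are those of Homer3, at 0.60, -0.91 and -1.02, and the intervals of the other members include 0 except that of Socs2 in MREmx1-cre.

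Homer3 lies on chromosome 8, which also carries Nr3c2, with 87 tested genes between them in the RefSeq gene order. In GREmx1-cre against dflox, 10 of these 87 genes were higher and 10 lower, or 23%, against 3.15% of all genes. In MREmx1-cre against dflox 5.75% of the 87 were called, and in GRMREmx1-cre against dflox 9.2%, against 6.81% and 16.3% of all genes. Among the 10 tested genes on either side of Homer3, 35% were called in GREmx1-cre, 15% in MREmx1-cre and 20% in GRMREmx1-cre, each against dflox. The GREmx1-cre mice are also the group that, by the crosses, lacks the floxed Nr3c2 allele that dflox carries. In the 2 comparisons with GREmx1-cre as the reference, 33.3% of the 87 genes were called in MREmx1-cre and 36.8% in GRMREmx1-cre, whereas GRMREmx1-cre against MREmx1-cre called 1.15%. The part of the chromosomal neighbourhood in the Homer3 result was not tested. The other matched members lie on chromosomes 7, 10, 12 and 14, which carry neither receptor gene.

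Homer3's partners were followed from a list of 7 genes: Homer1, Homer2, the glutamate receptor Grm5, the scaffolds Shank1, Shank2 and Shank3, and the calcium channel Itpr1. All 7 were tested. None passed in GREmx1-cre or MREmx1-cre against dflox by limma (2 and 4 had an unadjusted p under 0.05), and 1 passed in GRMREmx1-cre, or 14.3%, against 16.3% of all genes. That gene was Shank3, a scaffold of the postsynaptic density, with a log2 difference of -0.24 (adjusted p = 0.0234), and it missed the threshold without dflox replicate 1 or 4 or GRMREmx1-cre replicate 1 or 3 (adjusted p up to 0.0744). The median log2 difference of the 7 partners was 0.08 in GREmx1-cre, 0.03 in MREmx1-cre and 0.08 in GRMREmx1-cre, against 0.02, 0.04 and 0.03 over all genes.

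Genes near to Homer3 in pattern were found by the root mean square difference over the 15 arrays, after each gene's own mean was subtracted. The nearest was Zap70 at 0.164 log2 units, and Cabp7 lay at 0.207, while the SD of Homer3 itself over the arrays was 0.683. Zap70, known as a kinase of T cell receptor signalling, differed from dflox by 0.44 in GREmx1-cre, -1.03 in MREmx1-cre and -0.95 in GRMREmx1-cre on the log2 scale, of which the last turned to 0.031 under normexp. Cabp7, a calcium-binding protein, differed by 0.23, -0.86 and -0.90. Both genes were chosen for their likeness to Homer3 on these arrays, which fixes the direction of these values, so they are a description with no test.

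**Figure D3:**
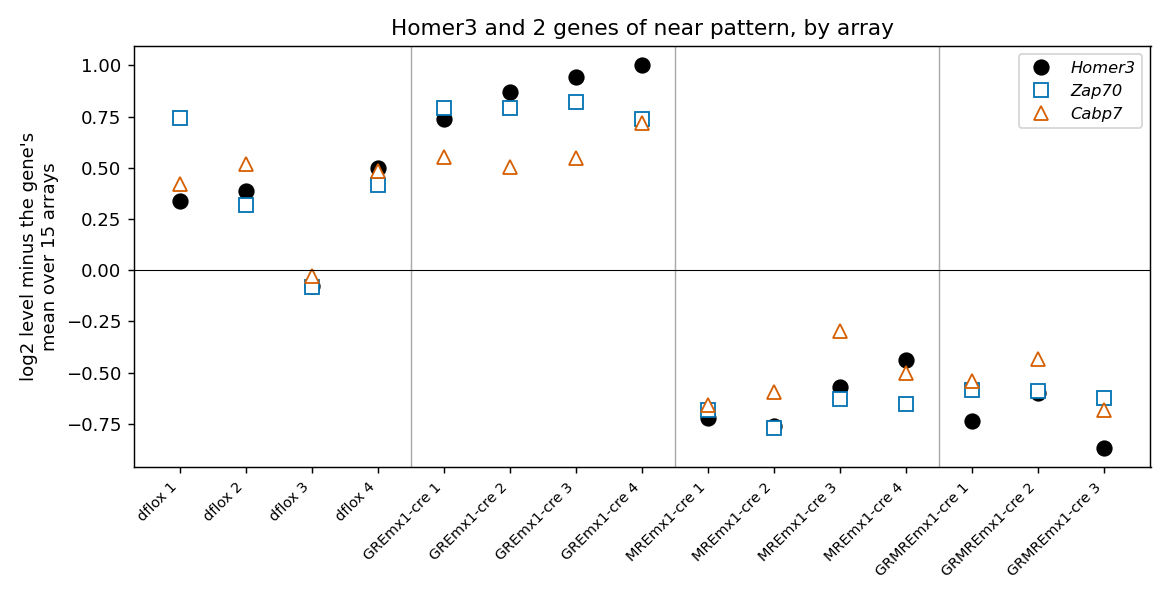
Log2 level minus the gene's mean over the 15 arrays (vertical axis) for Homer3 and 2 genes of near pattern, by array. Homer3 (filled circles) is above its mean on the 4 GREmx1-cre arrays and below it on all MREmx1-cre and GRMREmx1-cre arrays, and its RMS differences from Zap70 and Cabp7 are 0.164 and 0.207.

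Socs2 was somewhat lower in MREmx1-cre than in the other groups, by an amount that did not pass the threshold. Socs2, suppressor of cytokine signalling 2, restrains signalling from the growth hormone receptor. Its log2 levels were 0.07, -0.10, -0.12 and -0.06 in dflox and -0.06, 0.14, -0.23 and -0.10 in GREmx1-cre. They were -0.16, -0.37, -0.36 and -0.51 in MREmx1-cre and -0.14, -0.09 and -0.00 in GRMREmx1-cre. All 4 MREmx1-cre arrays lay below all dflox and GRMREmx1-cre arrays and overlapped GREmx1-cre through one array of each.

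Against dflox the MREmx1-cre difference of Socs2 was -0.30 ± 0.0866 (SE; limma, adjusted p = 0.0591), or 81.4% of the dflox level. It passed without MREmx1-cre replicate 1 (-0.36, adjusted p = 0.0262) and without GREmx1-cre replicate 2 (adjusted p = 0.0418). GREmx1-cre differed from dflox by -0.01 (95% interval -0.19 to 0.18) and GRMREmx1-cre by -0.03 (-0.23 to 0.18). In GRMREmx1-cre the Socs2 level was above that of MREmx1-cre by 0.27 ± 0.0935 (limma, adjusted p = 0.151). No member passed in that comparison (0 of 6 by limma, against 2.98% of all genes), and Socs2 was the 1 with an unadjusted p under 0.05. The order of the Socs2 means was MREmx1-cre at -0.35 ± 0.147 (SD), GRMREmx1-cre at -0.08 ± 0.0693, GREmx1-cre at -0.06 ± 0.153 and dflox at -0.05 ± 0.0883, and the last 3 did not differ beyond their spread.

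Socs2's relatives and its pathway were followed from a list of 12 genes, the other SOCS family members with the growth hormone receptor, Jak2, Stat5a, Stat5b and Igf1r. All 12 were tested. None passed in GREmx1-cre or MREmx1-cre against dflox by limma (4 had an unadjusted p under 0.05 in each), and in GRMREmx1-cre 2 rose and 1 fell, or 25%, against 16.3% of all genes. Socs3, an inhibitor of interleukin 6 family signalling, rose by 0.62 (adjusted p = 0.00704) and Socs1, an inhibitor of interferon signalling, by 0.50 (adjusted p = 0.00936). Igf1r, the receptor of insulin-like growth factor 1, differed by -0.45 (adjusted p = 0.00442).

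On its probe of higher mean, Prss23 was near the dflox level in GREmx1-cre and GRMREmx1-cre and was spread widely in MREmx1-cre. Prss23 encodes a secreted serine protease. Its probe of higher mean read 1.0, 0.70, 0.61 and 0.90 in dflox and 0.76, 0.65, 0.81 and 0.71 in GREmx1-cre. It read 0.42, 0.41, 1.10 and 0.37 in MREmx1-cre and 0.68, 0.74 and 0.56 in GRMREmx1-cre. In MREmx1-cre 3 arrays lay below every other array of the series, and the fourth, replicate 3, lay above them all.

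Against dflox the MREmx1-cre difference of Prss23 was -0.22 ± 0.144 (limma, adjusted p = 0.398), and without MREmx1-cre replicate 3 it was -0.40 (adjusted p = 0.0241). The GREmx1-cre difference was -0.07 (95% interval -0.38 to 0.25) and the GRMREmx1-cre difference -0.14 (-0.47 to 0.20). The second Prss23 probe read -4.64, -4.81, -5.29 and -4.64 in dflox, -4.96, -5.13, -4.76 and -4.59 in GREmx1-cre, -5.72, -5.07, -4.84 and -5.63 in MREmx1-cre, and -4.98, -5.07 and -5.46 in GRMREmx1-cre. On that probe MREmx1-cre replicate 3 was again the highest of its group, and it lay within the dflox range. Its MREmx1-cre difference was -0.47 ± 0.213 (limma over all tested probes, adjusted p = 0.229). The same probe gave -0.01 in GREmx1-cre and -0.32 in GRMREmx1-cre (limma over all tested probes, adjusted p = 0.985 and 0.397). The 95% interval of the latter ran from -0.82 to 0.17.

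Coch did not pass in any comparison. Coch encodes cochlin, a secreted protein of the extracellular matrix that is best known from the inner ear. Its probe of higher mean read -2.03, -2.78, -1.58 and -2.21 in dflox and -2.54, -2.25, -2.45 and -2.18 in GREmx1-cre. It read -2.14, -2.16, -2.04 and -2.07 in MREmx1-cre and -2.43, -2.11 and -2.08 in GRMREmx1-cre. The dflox arrays spanned the levels of the 3 knockout groups, with the lowest and the highest value of the series both in dflox.

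The differences of Coch from dflox were -0.20 ± 0.191 in GREmx1-cre, 0.05 in MREmx1-cre and -0.06 in GRMREmx1-cre (limma, adjusted p = 0.618, 0.916 and 0.895). The 95% interval in MREmx1-cre ran from -0.37 to 0.46, so a moderate change in either direction cannot be told from none with these arrays. The MREmx1-cre arrays lay above the GREmx1-cre arrays without overlap, by 0.25 (adjusted p = 0.466). The second Coch probe gave differences of -0.26, -0.11 and 0.22, none past the threshold (adjusted p = 0.752, 0.904 and 0.768 over all tested probes). Its levels were -5.38 to -3.93 in dflox, -5.33 to -4.38 in GREmx1-cre, -5.09 to -4.23 in MREmx1-cre and -4.96 to -3.59 in GRMREmx1-cre, and the 2 probes differed in the sign of their MREmx1-cre and GRMREmx1-cre differences.

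**Figure D4:**
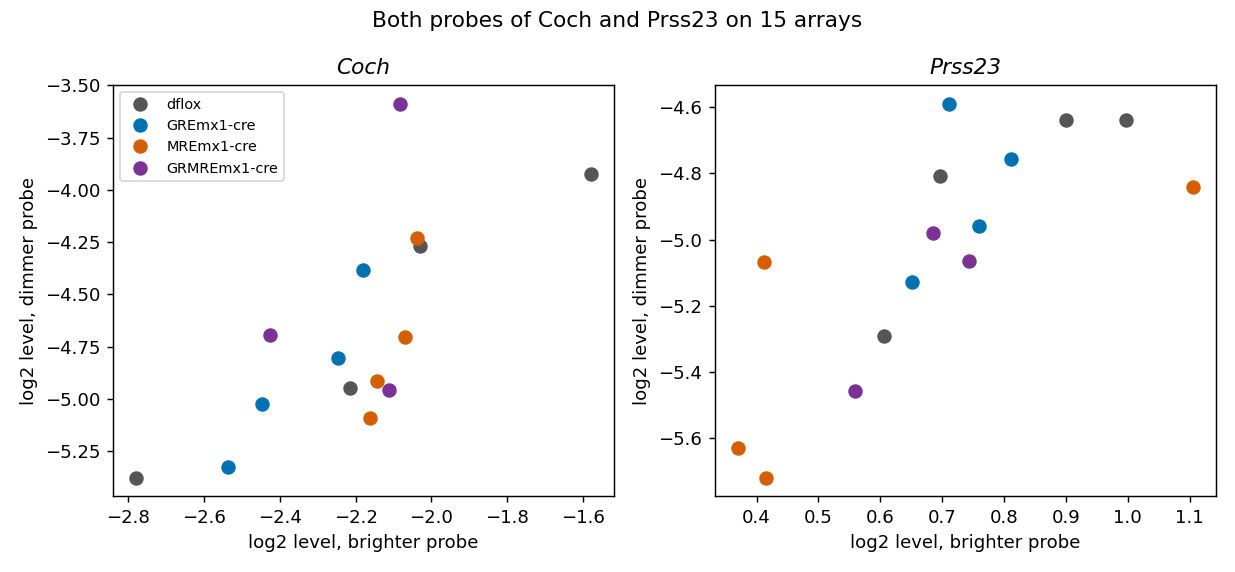
Log2 levels of the 2 probes of Coch (left) and of Prss23 (right) on the 15 arrays, the probe of higher mean on the horizontal axis. The MREmx1-cre array at 1.10 on the horizontal axis of the Prss23 panel reads -4.84 on the second probe, the highest value of its group.

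Iyd was near the detection limit of the array. Iyd encodes iodotyrosine deiodinase, which recovers iodide from iodinated tyrosines and is best known from the thyroid. Its probe was well above background on 6 of 15 arrays: 1 dflox, 2 GREmx1-cre, 1 MREmx1-cre and 2 GRMREmx1-cre. The levels were -5.72, -5.95, -6.22 and -6.08 in dflox, -5.64, -6.03, -5.65 and -5.72 in GREmx1-cre, -5.78, -6.27, -6.12 and -6.27 in MREmx1-cre, and -5.86, -5.88 and -6.25 in GRMREmx1-cre. The 4 groups overlapped, and the differences from dflox were 0.23, -0.12 and -0.00 (limma, adjusted p = 0.406, 0.675 and 0.998). Under normexp the GRMREmx1-cre difference was 1.65 (adjusted p = 0.0109).

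The genes of thyroid hormone handling form a list of 8, all tested. Against dflox 1 rose in GREmx1-cre, 2 rose in MREmx1-cre and 1 rose in GRMREmx1-cre, or 12.5%, 25% and 12.5%, against 3.15%, 6.81% and 16.3% of all genes. Dio1, a deiodinase that activates thyroid hormone, rose by 0.72 in GREmx1-cre (limma, adjusted p = 0.0151). The thyroid hormone receptors Thra and Thrb rose in MREmx1-cre by 0.24 (adjusted p = 0.0293) and 0.30 (adjusted p = 0.0336), and Thrb rose in GRMREmx1-cre by 0.30 (adjusted p = 0.0225). Thra missed the threshold without replicate 2, 3 or 4 of either group (adjusted p up to 0.0829). Thrb missed it in MREmx1-cre when replicate 1, 2 or 4 of dflox or replicate 1 or 2 of MREmx1-cre was left out (adjusted p up to 0.0889), and in GRMREmx1-cre without dflox replicate 2 or 4 or GRMREmx1-cre replicate 3 (adjusted p up to 0.102).

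Cdh24 was not well above background on any dflox or MREmx1-cre array and was so on 2 of 4 GREmx1-cre and 2 of 3 GRMREmx1-cre arrays. Cdh24 encodes a type II cadherin, a calcium-dependent cell adhesion protein. Its levels were -6.05, -6.24, -6.46 and -6.24 in dflox, -5.48, -5.42, -5.85 and -5.96 in GREmx1-cre, -6.22, -7.49, -6.31 and -6.71 in MREmx1-cre, and -5.62, -5.71 and -7.41 in GRMREmx1-cre. The GREmx1-cre arrays lay above all dflox and MREmx1-cre arrays, and the GRMREmx1-cre arrays spanned most of the range.

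The log2 differences of Cdh24, printed in the text and drawn in the plot of fold changes against dflox, are not read as folds. The brighter groups were themselves well above background on 2 arrays each. Cdh24 was tested only through those arrays, and its differences rest on signals near background. With all arrays the threshold was passed neither in GREmx1-cre against dflox (limma, adjusted p = 0.429) nor in MREmx1-cre against GREmx1-cre (adjusted p = 0.109, and 0.0242 without GRMREmx1-cre replicate 3, the low array of its group). Under normexp the GRMREmx1-cre difference of Cdh24 from dflox was 1.61 (adjusted p = 0.0109), against -0.00 without it. Of the other type II cadherins, 9 of 10 listed were tested. By limma, none passed in GREmx1-cre against dflox (1 had an unadjusted p under 0.05), 1 fell in MREmx1-cre (11.1%, against 6.81% of all genes) and 2 fell in GRMREmx1-cre (22.2%, against 16.3%). Cdh12, a type II cadherin of neurons, fell by 0.83 on the log2 scale in MREmx1-cre (adjusted p = 0.00316) and by 0.57 in GRMREmx1-cre (adjusted p = 0.018), and Cdh22 fell by 0.32 in GRMREmx1-cre (adjusted p = 0.0497). In GRMREmx1-cre the fall of Cdh12 missed the threshold without GRMREmx1-cre replicate 1 or 2 (adjusted p up to 0.0829) and turned to 0.98 under normexp, and that of Cdh22 missed it in 11 of the 15 fits that left out 1 array, all but those without GREmx1-cre replicate 1 or 4, MREmx1-cre replicate 3 or GRMREmx1-cre replicate 3 (adjusted p up to 0.197).

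Bok, whose expression was not analysed here, belongs to the BCL2 family. Core members of the family were followed in a list of 9 genes, all tested, which also holds the calcium channel Itpr1. None passed in GREmx1-cre or MREmx1-cre against dflox by limma (2 had an unadjusted p under 0.05 in each), and 1 rose in GRMREmx1-cre, or 11.1%, against 16.3% of all genes. That gene was Bcl2, which restrains cell death, at 0.35 (adjusted p = 0.01, and 0.0519 without GRMREmx1-cre replicate 2).

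Over the 6 tested members the median log2 difference from dflox was 0.11 in GREmx1-cre, -0.26 in MREmx1-cre and -0.04 in GRMREmx1-cre, against 0.02, 0.04 and 0.03 over all genes. These medians include Cdh24, which passed the filter through GREmx1-cre and GRMREmx1-cre arrays alone. No shift of the members as a group is read from them. The array ranges did not overlap with dflox for 1 member in GREmx1-cre (Homer3), where this held for 12.7% of all genes, for 2 in MREmx1-cre (Homer3 and Socs2; 13.9%) and for 1 in GRMREmx1-cre (Homer3; 29.4%). They did not overlap for 2 members between MREmx1-cre and GREmx1-cre (Homer3 and Coch; 15.8%), 1 between GRMREmx1-cre and GREmx1-cre (Homer3; 29.8%) and 1 between GRMREmx1-cre and MREmx1-cre (Socs2; 17.1%). Cdh24 is left out of these counts, because it was tested only through the groups in which it is brighter. The difference from dflox was negative for 3, 5 and 6 of the 6, Cdh24 included, with no share over all genes to set beside it. In GRMREmx1-cre, however, Iyd and Cdh24 stood at -0.00, Socs2 at -0.03 and Coch at -0.06, so the count shows no common fall. Under normexp the GRMREmx1-cre median turned to 0.33, below the 0.42 of all genes. Homer3 spanned 1.62 log2 units between its highest and lowest group mean, with an SD within a group of at most 0.251. Cdh24 spanned 1.0 with an SD of up to 1.01, and Coch spanned 0.25 with an SD of up to 0.497. Summed over the members on the linear scale, the signal relative to the 75th percentile was 3.16 to 3.80 in dflox, 3.50 to 3.61 in GREmx1-cre, 2.53 to 3.45 in MREmx1-cre and 2.93 to 3.13 in GRMREmx1-cre. Prss23 and Socs2, the brightest members, weigh most in this sum.

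A second list of 9 CA3 markers was followed beside the members: Grik4, Spock1, Ociad2, Npy2r, Cpne4, Nectin3, Hs3st4, Slit2 and Chgb, all tested. In GREmx1-cre none passed by limma, and 1 had an unadjusted p under 0.05. In MREmx1-cre 3 fell and 1 rose, and in GRMREmx1-cre 6 fell and 1 rose, which is 44.4% and 77.8% of the list, against 6.81% and 16.3% of all genes. This list, like the members and the other lists, was chosen with earlier results of these data known. Its shares of calls are therefore a description with no test. The list's median log2 difference from dflox was -0.03, -0.33 and -0.41 in these 3 genotypes. Leaving out any 1 array gave 4 or 5 called in MREmx1-cre and 4 to 7 in GRMREmx1-cre. The GRMREmx1-cre count was 4, with 3 lower, without dflox replicate 1, dflox replicate 4, GRMREmx1-cre replicate 1 or GRMREmx1-cre replicate 3.

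Hs3st4, which adds sulfate groups to heparan sulfate chains, had the smallest adjusted p of the list in MREmx1-cre and in GRMREmx1-cre. Its levels were 3.47, 3.60, 3.37 and 3.68 in dflox, 3.55, 3.62, 3.61 and 3.64 in GREmx1-cre, 2.65, 2.86, 2.97 and 2.85 in MREmx1-cre, and 2.71, 2.88 and 2.91 in GRMREmx1-cre. The 7 arrays of MREmx1-cre and GRMREmx1-cre lay below the other 8. How many of all genes part in this way was not counted. Against dflox alone, array ranges did not overlap for 13.9% of all genes in MREmx1-cre and 29.4% in GRMREmx1-cre. The differences from dflox were -0.69 ± 0.0801 in MREmx1-cre (limma, adjusted p = 0.00049) and -0.70 in GRMREmx1-cre (adjusted p = 0.000269).

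Grik4, a kainate receptor subunit known for its CA3 enrichment, read 3.92, 3.87, 3.64 and 3.87 in dflox and 3.75, 3.88, 3.77 and 3.77 in GREmx1-cre. It read 3.35, 3.42, 3.42 and 3.49 in MREmx1-cre and 3.59, 3.68 and 3.43 in GRMREmx1-cre. The MREmx1-cre arrays lay below all dflox arrays, while GRMREmx1-cre overlapped dflox through one array of each. The differences were -0.41 ± 0.0692 (limma, adjusted p = 0.00425) and -0.26 (adjusted p = 0.0314), and the second missed the threshold in 5 of the 15 fits that left out 1 array, when dflox replicate 1, 2 or 4 or GRMREmx1-cre replicate 1 or 3 was left out (adjusted p up to 0.136).

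Slit2, a secreted axon guidance protein, went the other way. It read 1.34, 1.07, 1.61 and 1.14 in dflox, 1.03, 1.08, 0.93 and 0.97 in GREmx1-cre, 2.05, 2.04, 1.89 and 1.81 in MREmx1-cre, and 2.31, 2.39 and 2.04 in GRMREmx1-cre. Here the 7 MREmx1-cre and GRMREmx1-cre arrays lay above the other 8, again with no share over all genes counted. The rises over dflox were 0.66 ± 0.112 (limma, adjusted p = 0.00427) and 0.96 (adjusted p = 3e-04).

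Chgb, a granin of dense core vesicles, differed from dflox by -0.36 in MREmx1-cre (limma, adjusted p = 0.00627) and -0.46 in GRMREmx1-cre (adjusted p = 0.00111). Cpne4, Ociad2 and Spock1, named after their values were seen, passed in GRMREmx1-cre alone among the comparisons with dflox, at -0.48 (adjusted p = 0.0164), -0.41 (adjusted p = 0.03) and -0.48 (adjusted p = 0.0468). Without GRMREmx1-cre replicate 3 Cpne4 missed the threshold (adjusted p = 0.0739). Ociad2 missed it without dflox replicate 1, 2 or 4 or any GRMREmx1-cre array (adjusted p up to 0.1), and Spock1 missed it in 9 of the 15 fits that left out 1 array (adjusted p up to 0.176), those that dropped replicate 1, 3 or 4 of dflox, 2 or 3 of GREmx1-cre, 2 or 4 of MREmx1-cre, or 1 or 2 of GRMREmx1-cre. In MREmx1-cre the same 3 genes stood at -0.33, -0.29 and -0.48 without passing. GRMREmx1-cre against MREmx1-cre called 0 of the 9 genes by limma, with 1 at an unadjusted p under 0.05. Summed on the linear scale, the 9 markers stood at 186 to 225 in dflox, 209 to 217 in GREmx1-cre, 147 to 170 in MREmx1-cre and 148 to 159 in GRMREmx1-cre. Chgb, at 7.06 to 7.35 on the log2 scale in dflox, weighs most in this sum. The mean log2 level of the 9, relative to its mean over all arrays, was 0.02 to 0.19 in dflox and 0.04 to 0.13 in GREmx1-cre. It was -0.17 to -0.11 in MREmx1-cre and -0.16 to -0.04 in GRMREmx1-cre.

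**Figure D5:**
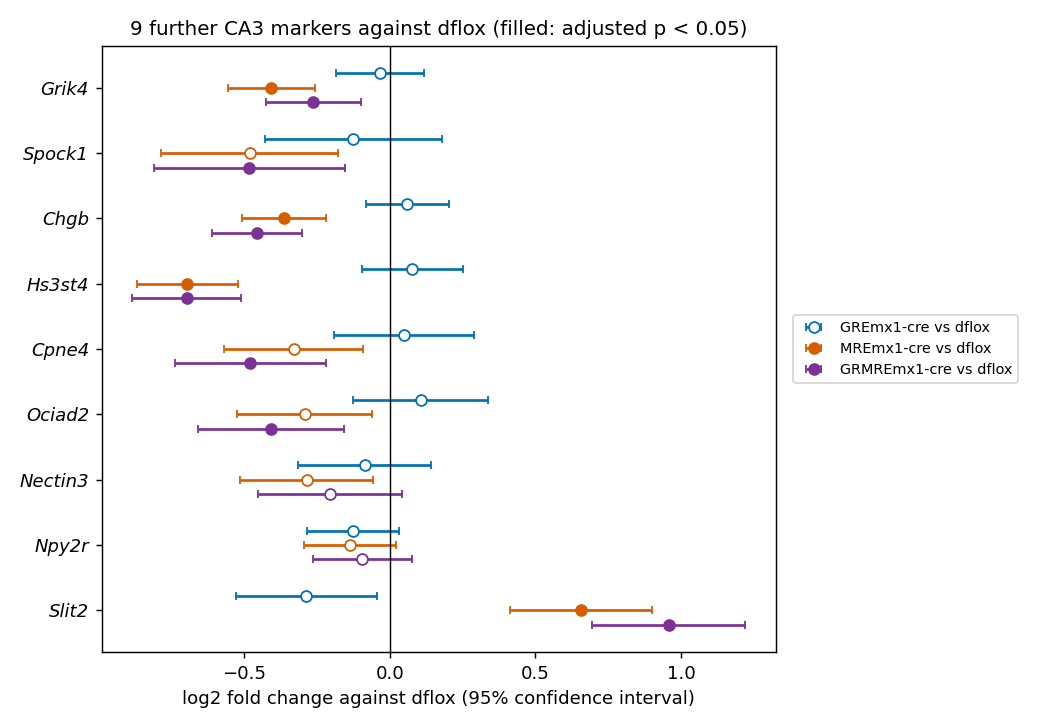
Log2 fold change against dflox of 9 further CA3 markers in the 3 knockouts, with 95% confidence intervals from limma. Filled points passed an adjusted p of 0.05. Hs3st4 is lowest in MREmx1-cre and GRMREmx1-cre at -0.69 and -0.70, Slit2 lies at 0.66 and 0.96, and in GREmx1-cre no point is filled.

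Markers of other hippocampal cells were called as well, against 6.81% of all genes in MREmx1-cre and 16.3% in GRMREmx1-cre. Of 9 tested CA2 markers 4 fell and 1 rose in MREmx1-cre and likewise in GRMREmx1-cre (55.6% in each), and their summed signal was 52.3 to 55.2 in dflox, 52.2 to 56.0 in GREmx1-cre, 37.9 to 39.2 in MREmx1-cre and 36.7 to 41.9 in GRMREmx1-cre. Necab2, a calcium-binding protein, stood at -1.0 (limma, adjusted p = 0.00146) and -1.02 (adjusted p = 0.000902). Of 12 dentate granule markers 4 fell and 1 rose in MREmx1-cre (41.7%) and 6 fell in GRMREmx1-cre (50%), with Calb1, the calcium buffer calbindin, at -1.39 (adjusted p = 3.94e-05) and -1.53 (adjusted p = 1.35e-05). Their summed signal was 33.8 to 46.2 in dflox, 37.5 to 46.6 in GREmx1-cre, 29.4 to 32.8 in MREmx1-cre and 24.6 to 30.7 in GRMREmx1-cre.

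Of 8 CA1 markers 2 fell and 1 rose in MREmx1-cre (37.5%) and 3 fell and 1 rose in GRMREmx1-cre (50%), with medians of 0.00 and -0.04. Spink8, a secreted protease inhibitor, fell by 2.19 on the log2 scale in MREmx1-cre (limma, adjusted p = 0.00052) and by 3.61 in GRMREmx1-cre (adjusted p = 1.35e-05), where it stood at 8.17% of dflox. Lefty1, a secreted inhibitor of Nodal signalling, fell by 1.05 (adjusted p = 0.00984) and by 2.03 (adjusted p = 0.000138). Wfs1, a protein of the endoplasmic reticulum, rose by 0.65 (adjusted p = 0.00234) and 0.54 (adjusted p = 0.00469). The mean log2 level of the 8 CA1 markers, relative to its mean over all arrays, was -0.07 to 0.30 in dflox, 0.18 to 0.31 in GREmx1-cre, -0.30 to 0.07 in MREmx1-cre and -0.48 to -0.42 in GRMREmx1-cre, so that GRMREmx1-cre lay apart from dflox on this scale. On the linear scale, where the brightest markers weigh most, the groups overlapped: the summed CA1 signal was 96.7 to 123 in dflox, 105 to 119 in GREmx1-cre, 106 to 130 in MREmx1-cre and 108 to 112 in GRMREmx1-cre. Of 9 microglia markers 3 rose in MREmx1-cre (33.3%) and 6 rose in GRMREmx1-cre (66.7%), with a summed signal of 35.8 to 39.6 in dflox, 38.4 to 41.8 in GREmx1-cre, 42.7 to 45.3 in MREmx1-cre and 44.9 to 53.2 in GRMREmx1-cre. In GREmx1-cre against dflox, where 3.15% of all genes were called, limma called 1 rise among the microglia markers and 0 of the other 3 lists. The part of these 4 lists in the results on CA3 markers was not tested.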

How the data were processed

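Total RNA of 15 whole hippocampi was labelled with Cy3 and hybridised to 15 single-colour Agilent mouse arrays. Per the submitters' processing notes the scanner output came from Agilent Feature Extraction 12.0. Per the file headers, the processed signal is an intensity from which the scanner software had removed the background. Other deposited columns hold flags (0 or 1) for spots well above background and for outlier spots. The authors' deposited value table held the same intensity at 45018 of 45018 spots.

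The log2 intensity minus each array's 75th percentile over 43379 spots other than controls was used. Outlier spots were dropped and the spots of a probe averaged. Probes were named by accession through RefSeq's gene table of GRCm38.p6, which named 28223 of 41174 probes; the array was designed on mm9, so that table served only for names and gene order. Tested were probes well above background on 3 or more arrays, with 1 probe per gene (highest mean), which gave 22864 genes. A model with 1 mean per group was fitted to the 15 arrays with limma 3.58.1 (R 4.3.3; lmFit, then eBayes), whose p-values were adjusted by Benjamini-Hochberg over those genes and called under 0.05. SE is the standard error of the log2 difference. The number of arrays, 3 or 4 a group, limits the precision. The scripts were tested on simulated data.

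The members are always named, as are Nr3c1 and Nr3c2, up to 3 called genes of each list in a comparison, and the 3 genes of nearest pattern to a called member, of which 1 is not reported here, like 1 gene of the list of Homer3's partners. Members and lists were chosen with earlier results of these data known. Alternatives were another scaling, background correction, filter, probe rule, variance model, set of arrays and a replicate block. The normexp correction used the median rather than the mean spot signal. The figures used matplotlib 3.10.9 (Python 3.11.15).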

Additional observations from a re-analysis of the deposited data

Results flagged for a closer look

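The Prss23 level on the array of MREmx1-cre replicate 3 was 1.10, while the other 3 MREmx1-cre arrays read 0.37 to 0.42. The gap to the nearest of them was 0.938 of the group's whole range, above Dixon's 95% critical value for 4 samples. The second Prss23 probe read -4.84 on this array, the highest of its group. Among 18 sets of 1 member and 1 group of 4 arrays it was the 1 past that value, and chance passes it in about 1 of 20 groups.

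Homer3 moved in opposite directions from dflox in the 2 single knockouts, 0.60 in GREmx1-cre and -0.91 in MREmx1-cre. Their difference, MREmx1-cre minus GREmx1-cre, was -1.51 (limma, adjusted p = 1.68e-05), with all 4 MREmx1-cre arrays below all 4 GREmx1-cre arrays. The rise in GREmx1-cre depended on single arrays, as given above. Among the 10 tested genes on either side of Homer3, 45% were called in MREmx1-cre against GREmx1-cre, against 9.33% of all genes. What part the chromosomal neighbourhood has in this difference was not tested.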

How the results depend on the processing

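The members called were 1, 1 and 1 in GREmx1-cre, MREmx1-cre and GRMREmx1-cre against dflox, 1 in GRMREmx1-cre and 1 in MREmx1-cre against GREmx1-cre, and 0 in GRMREmx1-cre against MREmx1-cre and in the interaction. These counts stayed the same under quantile or median scaling, without the filter on dim probes, with the mean of probes, with every probe tested, with outlier spots kept and with the deposited value table. They also stayed the same without GREmx1-cre replicate 1 and MREmx1-cre replicate 2 together, a choice made after seeing the data. Leaving out 1 array gave 0 to 1, 1 to 2 and 1 to 1 members against dflox, 1 to 1 in GRMREmx1-cre and 1 to 2 in MREmx1-cre against GREmx1-cre, 0 to 0 in GRMREmx1-cre against MREmx1-cre and 0 to 0 in the interaction. Cdh24 was kept in these counts, and it passed in MREmx1-cre against GREmx1-cre without GRMREmx1-cre replicate 3. Since Cdh24 was tested only through the groups in which it is brighter, nothing is read from that call. Testing only probes well above background on all arrays, or trend and robust variances, gave 2 members in MREmx1-cre against dflox and 2 against GREmx1-cre (Socs2 added) and 1 in the interaction (Homer3). With only the groups compared, GREmx1-cre against dflox called 0 members by limma.

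The normexp background correction changed most. It called 0, 0 and 2 members against dflox (the 2 higher, Iyd at 1.65 and Cdh24 at 1.61), 4 in GRMREmx1-cre against GREmx1-cre (Iyd 1.48, Cdh24 1.43) and 3 in GRMREmx1-cre against MREmx1-cre. Against dflox in GRMREmx1-cre, Nr3c2 turned to 0.96, Zap70 to 0.031 and Cdh12 to 0.98. Against GREmx1-cre, Nr3c2 turned to 0.63, Dio1 to 1.35 and Cdh12 to 0.91. Nr3c2 turned to 1.01 against MREmx1-cre and to 0.67 in the interaction. The background that normexp fitted was -804 to -30.6 units on the GRMREmx1-cre arrays and -0.331 to 2.42 on all others, and the median of all genes moved to 0.42 in GRMREmx1-cre against dflox, 0.41 against GREmx1-cre, 0.40 against MREmx1-cre and 0.38 in the interaction.

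Over all genes, the 721 calls in GREmx1-cre against dflox became 425 under quantile scaling, 440 under median scaling, 471 without the filter and 346 with only the groups compared. The 1557 calls in MREmx1-cre against dflox became 1029 under median scaling and 695 with only the groups compared, as 681 became 420 in GRMREmx1-cre against MREmx1-cre and 2134 became 1238 in MREmx1-cre against GREmx1-cre. The 295 interaction calls became 182 under median scaling and 138 without the filter. With normexp the calls were 13, 105 and 14121 against dflox in GREmx1-cre, MREmx1-cre and GRMREmx1-cre, 14086 in GRMREmx1-cre and 173 in MREmx1-cre against GREmx1-cre, 13668 in GRMREmx1-cre against MREmx1-cre and 1 in the interaction. The cause was not tested.

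The replicate number is the one given in the sample titles. Same-numbered arrays deviated from their group means with correlations of -0.03 to 0.19, with a median of 0.07 and 6 of 21 pairs above 0.1. Pairs of unlike number across groups had a median of -0.02, with 1 of 63 above 0.1. Of the 15 arrays, 14 correlated best with their own number. Arrays of the same number thus shared some weak variation, whose source was not tested. The main model did not take the numbers as a pairing. With the replicate block the counts of members called were the same, and Homer3 stood at 0.60, -0.91 and -0.97 against dflox (limma, adjusted p = 0.0131, 0.00172 and 0.000809). The signal of Iyd and Cdh24, near background on most arrays, limits what can be said of them.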

Other observations

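Further marker lists gave the following calls against dflox, by limma, where 3.15%, 6.81% and 16.3% of all genes were called in GREmx1-cre, MREmx1-cre and GRMREmx1-cre. Of 8 astrocyte markers 2 rose and 1 fell in GREmx1-cre, 2 rose in MREmx1-cre and 3 rose and 2 fell in GRMREmx1-cre, with Aqp4, the water channel of astrocyte endfeet, at 0.76 in GRMREmx1-cre (adjusted p = 0.000747). Other markers of this list went the other way, with Aldoc at -0.54 in GRMREmx1-cre (limma, adjusted p = 0.00107) and Gjb6 at -0.54 in GREmx1-cre (limma, adjusted p = 0.0256). Aldoc and Gjb6 were not followed through the fits that left out 1 array. Of 11 markers of GABAergic interneurons 1 was called, Cck at -0.30 in GRMREmx1-cre (adjusted p = 0.0136, and 0.0587 without GRMREmx1-cre replicate 1). Of 8 oligodendrocyte markers 1 was called, Mal at -0.52 in GRMREmx1-cre (adjusted p = 0.00682). None of 5 mossy cell markers passed in the 3 comparisons, with 0, 0 and 2 at an unadjusted p under 0.05 in GREmx1-cre, MREmx1-cre and GRMREmx1-cre. None of 7 endothelial markers passed either, with 0, 1 and 2 under that value.

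Of 7 fibroblast markers 2 fell in each knockout and 1 also rose in GRMREmx1-cre. None of 7 choroid plexus markers passed, and none had an unadjusted p under 0.05. They had summed signals of 24.8 to 70.2 in dflox and 1.43 on MREmx1-cre 2. Of 7 thalamus and habenula markers 1 fell in MREmx1-cre, and 1 rose and 1 fell in GRMREmx1-cre; their summed signal was 6.96 on GREmx1-cre 1 and at most 4.84 in dflox.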
